A study of Mus musculus with 55 samples.

Results

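The genes of the tubulins were followed at the pre-mRNA level in mouse embryonic stem (ES) cells as these left a mitotic arrest imposed with nocodazole, a drug that depolymerises microtubules. The 10 genes were taken by symbol from a fixed list, 3 of them coding for α-tubulin (Tuba1a, Tuba1b, Tuba1c), 6 for β-tubulin (Tubb5, Tubb4b, Tubb2a, Tubb2b, Tubb6, Tubb3) and Tubg1 for γ-tubulin. All 10 were listed in both deposited tables, among 10574 genes listed in either table and 9574 in both. The CCNA-GFP line, an E14Tg2a derivative with a cyclin A reporter fused to GFP, gave 19 libraries. The CTCF-AID line, in which the architectural factor CTCF carries an auxin-inducible degron, gave 36 libraries, 18 without the auxin IAA (-IAA) and 18 with 0.5 mM IAA (+IAA), which degrades the CTCF protein. Mitotic cells of every arm had been held in 10 µM RO-3306, a CDK1 inhibitor, for 4 h and then in 50 ng/ml nocodazole for 4 h before shake-off, and were collected at once or at 20 to 120 min after the drug was washed out. Asynchronous cells had received neither drug. In the +IAA arm IAA was present for the last 2 h of nocodazole and through the release, whereas asynchronous cells had it for 4 h. Time in IAA thus differed between stages. Mitotic and asynchronous cells had 3 replicates in each arm and post-mitotic stages had 2, except that 30 min was sampled only in CCNA-GFP and 50 min of CCNA-GFP had 1 library, for which no call is given. Where leaving out a replicate leaves a post-mitotic stage with 1 library, the test takes its spread from the other groups and assumes that the lone library varies like them, so that calls lost or gained there describe that fit and no replicate of the stage. Each line is 1 engineered derivative of E14Tg2a, so that differences between the lines cannot be told apart from differences between clones.

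α- and β-tubulin form the heterodimer from which microtubules are built, and γ-tubulin, within its ring complex, templates new microtubules at centrosomes and spindle poles. When microtubules are depolymerised and free tubulin rises, cells destroy tubulin mRNA in the cytoplasm: TTC5 recognises the nascent tubulin peptide on the ribosome and, through SCAPER, recruits the CCR4-NOT deadenylase. That autoregulation acts on mRNA under translation, whereas the values described here are those of unspliced pre-mRNA, which follow transcription more closely. Mitotic chromosomes are largely silent, and transcription resumes as cells divide and enter G1.

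RefSeq promoter sequences (GRCm38.p6) were matched for 7 of the 10 genes, and 4 are shown as the genes with the most different behaviour: Tubb4b (chr2:25224703-25224952, minus strand), which rose strongly after release, Tubb5 (chr17:35838302-35838551, minus strand) and Tubb3 (chr8:123411303-123411552, plus strand), which stood high in mitosis, and Tuba1b (chr15:98934391-98934640, minus strand), the main α-tubulin gene. Each line holds the 250 bases before the RefSeq start, with capitals at CCAAT (the box bound by NF-Y) or its reverse complement ATTGG, and at TTTGAA (the element known as CHR in promoters of cell cycle genes) or its reverse complement TTCAAA. For Tuba1b and Tubb3, and by a few bases for Tubb5, these windows run into the gene as bounded by the annotation given below.
Tubb4b: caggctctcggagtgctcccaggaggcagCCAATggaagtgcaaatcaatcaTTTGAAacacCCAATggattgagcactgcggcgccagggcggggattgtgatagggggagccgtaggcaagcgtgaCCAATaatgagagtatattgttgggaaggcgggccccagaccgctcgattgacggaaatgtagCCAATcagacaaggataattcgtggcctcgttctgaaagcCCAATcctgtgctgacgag
Tubb5: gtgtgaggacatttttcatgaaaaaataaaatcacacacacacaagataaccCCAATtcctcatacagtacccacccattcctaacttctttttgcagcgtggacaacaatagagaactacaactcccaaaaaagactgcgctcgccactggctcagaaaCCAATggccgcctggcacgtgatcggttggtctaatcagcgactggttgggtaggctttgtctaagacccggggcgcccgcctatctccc
Tubb3: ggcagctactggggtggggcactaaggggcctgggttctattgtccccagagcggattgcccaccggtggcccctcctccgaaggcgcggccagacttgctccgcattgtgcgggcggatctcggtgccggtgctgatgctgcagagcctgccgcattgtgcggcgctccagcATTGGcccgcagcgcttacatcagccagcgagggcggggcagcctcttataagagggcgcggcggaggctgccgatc
Tuba1b: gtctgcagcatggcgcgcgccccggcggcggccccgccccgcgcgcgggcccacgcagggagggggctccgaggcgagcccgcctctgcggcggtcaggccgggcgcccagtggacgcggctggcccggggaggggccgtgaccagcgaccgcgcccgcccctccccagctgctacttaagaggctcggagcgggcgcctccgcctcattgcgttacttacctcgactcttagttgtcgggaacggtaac
Counted on both strands over 250 bases before and 50 after the start, CCAAT was present 5 times at Tubb4b, 2 times at Tubb5 and 1 time each at Tubb3, Tuba1a and Tuba1c. It was thus found in 5 of the 7 members matched and in 33.8% of 32851 promoters. TTTGAA was found at Tubb4b alone among the 7 and in 16.0% of all promoters. The motif GGGCGG was present in 5 of the 7 (32.7% of all promoters), TATAAA only at Tubb2a (12.4%) and CACGTG only at Tubb5 (6.02%).

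In the GRCm38 annotation (Gencode vM21), Tuba1b (chr15:98931425-98934565, minus strand), Tuba1a (chr15:98949837-98953703, minus strand) and Tuba1c (chr15:99029891-99038110, plus strand) lie within 106.686 kb. Tubb2a (chr13:34074274-34078007) and Tubb2b (chr13:34126748-34130466) are neighbours on the minus strand within 56.193 kb. The others stand alone: Tubb4b at chr2:25222160-25224702 and Tubb5 at chr17:35833921-35838306 on the minus strand, and Tubb3 at chr8:123411424-123422015, Tubb6 at chr18:67390717-67402749 and Tubg1 at chr11:101119938-101126419 on the plus strand. Introns made up from 17.9% of the gene (Tubb4b) to 82.4% (Tubb3), and 24.1% of Tubb5. The pre-mRNA isoform was quantified beside the spliced ones, and exonic reads fit both. The values of genes with little intron, such as Tubb4b and Tubb5, thus rest on few bases particular to pre-mRNA. How much spliced mRNA they carry was not tested. Coding exons of tubulin isotypes are near copies of each other, so the assignment of reads between Tuba1a, Tuba1b and Tuba1c, or between the β-tubulin genes, is uncertain. Moreover, Tuba1a and Tuba1b overlap the annotated gene Gm49450 on their own strand, and Tubb3 overlaps Gm20388 on its own strand.

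The values are TPM, the usual length-corrected unit of RNA-seq abundance, of the pre-mRNA isoform of each gene, so that levels of different genes may be compared. TPM hold no read counts and the depth behind each value is unknown. The pre-mRNA TPM of all listed genes summed to between 13747 and 42576 in CCNA-GFP and between 17702 and 43370 in CTCF-AID, and these sums moved with the stage. The TPM of 1 gene can thus rise when pre-mRNA as a whole rises, and in bulk samples fewer transcribing cells and less RNA per cell cannot be told apart. For this reason, and because all differences within an arm share its mitotic or asynchronous libraries, the main differences from mitosis are set beside the median difference of all genes. Of 8 markers of ES cells, 7 were listed in both lines (Sox2 was not), with summed levels of 28.1–77.1 TPM in mitotic and 65.8–138 TPM in asynchronous cells. Primitive endoderm markers (5 of 5) were not listed in either table. Over all stages, summed levels reached at most 5.55 TPM for T and Eomes, 10.8 TPM for Nes and Pax6 (60 min without IAA), 4.77 TPM for Krt8 with Cdx2, which is listed for CTCF-AID alone, and 3.42 TPM for Col1a1 and Thy1, likewise listed there alone. Some of these markers moved with the tubulin genes after release. At 60 min against mitosis Nes and Pax6 were both called higher in each arm, with medians of 0.92, 1.33 and 1.35 (all genes 0.79, 0.63 and 0.63), and Col1a1 and Thy1 both in CTCF-AID, with 0.85 without and 0.97 with IAA. The sum of Col1a1 and Thy1 was 0.146–0.473 TPM in mitotic and 0.348–1.17 TPM in asynchronous cells. Genes were listed by their asynchronous or post-mitotic level, so that the calls of these low genes may in part follow from that filter. In CTCF-AID the sum of Nes and Pax6 went from 1.15–2.08 TPM in mitosis to 4.90–10.8 TPM at 60 min. Their part in the results was not tested. Replicates are libraries with separate numbers, and p-values measure the spread between these libraries.

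A few genes dominated the family. In asynchronous CCNA-GFP cells, Tuba1b (9.95 ± 2.62 TPM, SD, n = 3) and Tubb5 (9.48 ± 2.22 TPM) overlapped at the top, with Tubb4b close by (9.29 TPM), whereas Tubb2a was last (0.402 ± 0.0307 TPM). Mitotic cells showed a different order. Tubb5 was first (10.9 ± 1.80 TPM) and did not overlap with Tubb4b (6.02 ± 0.851 TPM), and Tubb3, the isotype best known from neurons, stood above Tuba1a, Tuba1c and Tubb6 without overlap. In the CTCF-AID line Tubb3 was next after Tubb5 and Tuba1b in mean level in mitosis and overlapped with Tubb4b, at 6.67 ± 2.01 TPM without IAA and 6.28 ± 1.68 TPM with IAA.

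**Figure D1:**
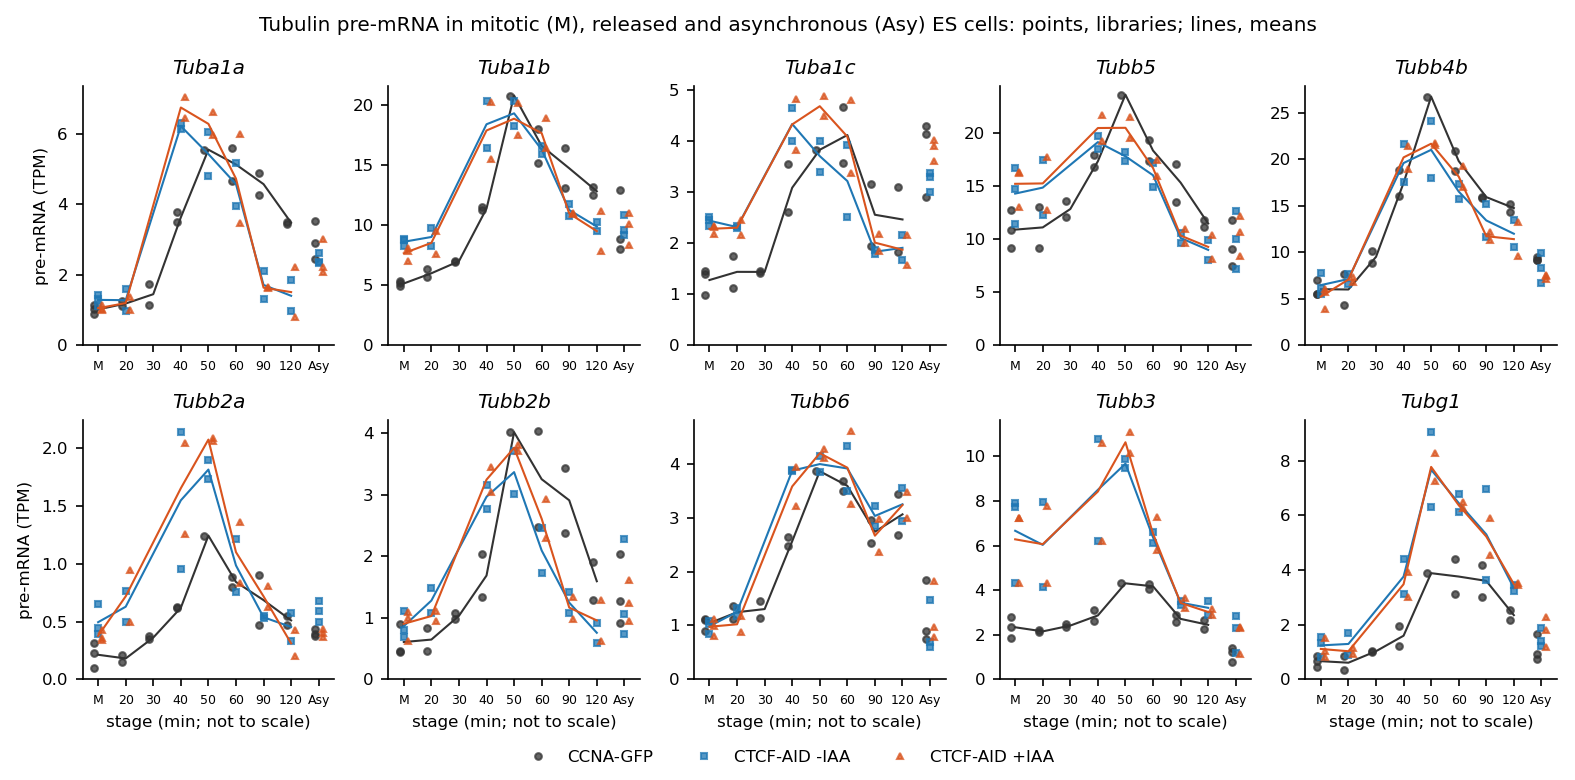
Pre-mRNA level in TPM (vertical axes, from 0, a separate scale for each gene) at each stage (horizontal axes, M for mitotic, minutes after release, Asy for asynchronous, not to scale). Points are libraries, lines join the means of mitotic and post-mitotic stages, and the highest mean of each of the 10 genes lies between 40 and 60 min in each of the 3 arms. With equal totals, which are not drawn, Tubb3 is highest in M or at 20 min, Tubb5 is highest at 20 min in CTCF-AID, and Tuba1c is highest in Asy in CCNA-GFP and with IAA.

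The first comparison set mitotic cells, which had been through RO-3306 and nocodazole, against cycling cells that received neither, so that exposure to the drugs and mitosis itself cannot be told apart. Pre-mRNA of the tubulin genes differed, and not in 1 direction. Tuba1a and Tuba1c were called higher in asynchronous cells in all 3 arms and Tuba1b in 2 of them, whereas Tubb3 was called lower in all 3 arms and Tubb5 in the 2 arms of CTCF-AID, against a transcriptome that was on the whole higher. In CCNA-GFP, 7 of the 10 genes were called higher in asynchronous cells and 1 lower (limma, adjusted p under 0.05 over all genes), where 70.4% of all genes were called higher, the same share as the members, and 1.97% lower. In CTCF-AID without IAA 2 were called higher and 2 lower (34.3% and 5.25% of all genes), and after division of the libraries by their own factors these became 6 higher and 1 lower (66% and 1.51%). With IAA 5 were called higher and 2 lower (40.9% and 5.89%). The median log2 difference of the 10 genes was 0.44, 0.17 and 0.28 in the 3 arms, beside 0.33, 0.12 and 0.15 for all genes.

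Tubb3 was the member with the largest fall from mitosis to asynchronous cells. In CCNA-GFP it was at 2.37, 1.86 and 2.78 TPM in mitotic cells and at 1.39, 0.760 and 1.22 TPM in asynchronous cells. In CTCF-AID without IAA mitotic cells had 7.92, 4.34 and 7.74 TPM and asynchronous cells 2.32, 1.19 and 2.83 TPM. With IAA the values were 7.26, 4.34 and 7.25 TPM against 2.32, 1.14 and 2.36 TPM. The groups did not overlap in any arm, and replicate 2 was the lowest library on both sides of each comparison. The log2 difference on the log2(TPM + 1) scale was -0.65 ± 0.10 (SE, adjusted p = 2.3e-05, limma) in CCNA-GFP, -1.30 ± 0.12 (adjusted p = 9.4e-08) without IAA and -1.31 ± 0.12 (adjusted p = 3.5e-08) with IAA. Each time it was lower in 3 of 3 replicate pairs.

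Tubb5, the β-tubulin isotype common to most tissues, also had negative differences, which were called in CTCF-AID and not in CCNA-GFP. CCNA-GFP mitotic libraries had 10.9, 9.13 and 12.7 TPM and asynchronous libraries 9.11, 7.46 and 11.9 TPM, so that the groups overlapped. The difference there, -0.20 ± 0.12, was not called (adjusted p = 0.15). In CTCF-AID without IAA Tubb5 fell from 16.7, 11.5 and 14.8 TPM in mitosis to 9.98, 7.21 and 12.7 TPM in asynchronous cells. The difference was -0.50 ± 0.15 (adjusted p = 0.0091), and with IAA it was -0.51 ± 0.15 (adjusted p = 0.0066). The groups overlapped without IAA and were apart with IAA. With the median of all genes subtracted, the difference of Tubb5 was -0.52 in CCNA-GFP, -0.62 without IAA and -0.66 with IAA.

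The 3 α-tubulin genes had positive differences, with the call missing for Tuba1b without IAA. Tuba1a, the α-tubulin gene best known from developing neurons, was at 0.871, 1.13 and 1.04 TPM in mitotic CCNA-GFP cells and at 2.44, 3.52 and 2.91 TPM in asynchronous ones. In CTCF-AID without IAA it was at 1.41, 1.12 and 1.32 TPM in mitosis and 2.36, 2.61 and 2.34 TPM in asynchronous cells. The groups were apart in every arm, and the log2 differences were 0.97 ± 0.12 (adjusted p = 3.0e-06), 0.59 ± 0.17 (adjusted p = 0.0081) and, with IAA, 0.74 ± 0.17 (adjusted p = 0.0012). Tuba1c was called higher in all 3 arms too, by 1.06 ± 0.10 in CCNA-GFP (adjusted p = 3.3e-07), 0.30 ± 0.10 without IAA (adjusted p = 0.02) and 0.56 ± 0.10 with IAA (adjusted p = 9.0e-05). Tuba1b, the most abundant α-tubulin pre-mRNA, rose from 4.91, 5.35 and 5.15 TPM to 8.88, 8.04 and 12.9 TPM in CCNA-GFP, by 0.81 ± 0.12 on the log2 scale (adjusted p = 2.6e-05). In CTCF-AID its difference was 0.17 ± 0.12 without IAA (adjusted p = 0.26) and 0.32 ± 0.12 with IAA (adjusted p = 0.033), with all asynchronous libraries above all mitotic ones in both arms.

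The remaining β-tubulin genes and Tubg1 differed from arm to arm in what was called. Tubb4b, a broadly expressed β-tubulin, was higher in asynchronous cells by 0.56 ± 0.13 in CCNA-GFP (adjusted p = 8.9e-04) and by 0.45 ± 0.13 with IAA (adjusted p = 0.0063), and its difference without IAA was 0.32 ± 0.13 (adjusted p = 0.05, not called). Tubb2a and Tubb2b, close relatives that are abundant in the nervous system, were called higher in CCNA-GFP, by 0.21 ± 0.08 and 0.57 ± 0.12. Their differences in CTCF-AID ran from 0.03 to 0.29 and were not called. Tubb6 did not pass the test in any arm, with differences of 0.05, -0.07 and 0.13. Tubg1 was called higher in CCNA-GFP (0.32 ± 0.11, adjusted p = 0.015) and with IAA (0.38 ± 0.11, adjusted p = 0.0073), near the median of all genes in the first case. With each library scaled to the same total, which brings the median difference of all genes from 0.33, 0.12 and 0.15 down to 0.03, 0.03 and 0.04, the calls became 4 higher and 2 lower in CCNA-GFP (24.8% and 20.3% of all genes), 1 and 2 without IAA (27.2% and 21.4%), and 3 and 2 with IAA (29.8% and 22.4%). The counts of genes called lower are thus near the share of all genes under that scaling. Without the replicate block 2 genes were called higher with IAA, and 1 higher and 1 lower without IAA. Of all 10237 genes that fit called 1775 higher with IAA, and 1192 higher and 127 lower without IAA. With the block these were 4185, 3515 and 537, so that calls fell over the whole table. Leaving out all libraries of replicate 3 ended the calls of Tuba1a (0.62) and Tuba1c (0.34) without IAA, Tuba1b with IAA (0.26), and Tubb2a (0.20) and Tubg1 (0.23) in CCNA-GFP. Leaving out replicate 1 ended those of Tuba1b (0.24) and Tubb4b (0.27) with IAA and added Tubb4b (0.36) and Tubg1 (0.23) without IAA. Leaving out replicate 2 ended that of Tubb2a in CCNA-GFP (0.15) and added Tubb2b (0.42) and Tubb6 (-0.24) without IAA.

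**Figure D2:**
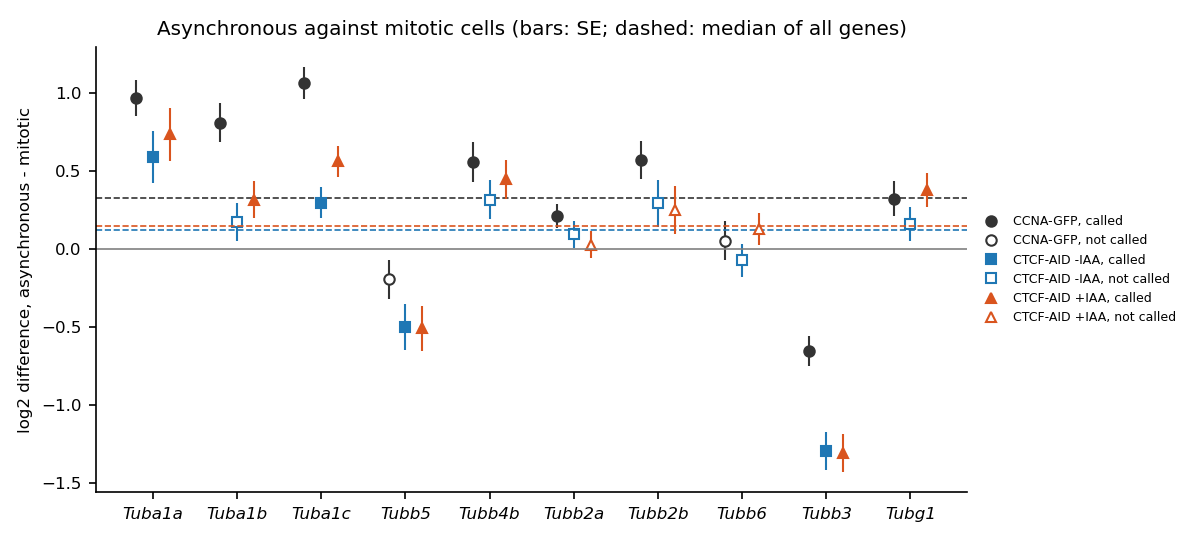
Log2 difference between asynchronous and mitotic cells on the log2(TPM + 1) scale (vertical axis) for each tubulin gene (horizontal axis), with bars for the SE of the limma fit, filled symbols for adjusted p under 0.05 and dashed lines for the median of all genes in each arm. Tubb3 and Tubb5 lie below 0 and the 3 α-tubulin genes above it in each arm, where open symbols did not pass the test.

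The next comparison asked when the tubulin genes resumed transcription once nocodazole was removed. At 20 min, 0 of the 10 genes were called in any arm, as were 0% of all genes, and limma gave an unadjusted p under 0.05 for 0 members in CCNA-GFP, 1 without IAA and 2 with IAA (253, 397 and 149 genes of the whole tables). At 40 min all 10 genes were called higher than in mitosis in each arm, where 49.3% (CCNA-GFP), 63.3% (-IAA) and 58.7% (+IAA) of all genes were. In CCNA-GFP Tubb2a had means of 0.213 TPM in mitotic and 0.402 TPM in asynchronous cells, and it passed the level filter of the table only through post-mitotic stages. Its calls above mitosis in that line are therefore in part fixed by the filter and carry no weight. With equal totals the members called higher at 40 min were 8, 7 and 8 (23.7%, 33.3% and 33.2% of all genes). The median log2 difference at 40 min was 0.80, 1.11 and 1.17 for the 10 genes and 0.26, 0.34 and 0.30 for all genes. The largest increases at 40 min were those of Tubb4b and Tuba1a. At 60 min 10, 8 and 8 of the 10 genes were called higher, against a background of 88.3%, 84.8% and 82.2% of all genes, a share near which the count is no result about the tubulins. The median log2 difference at 60 min was 1.34, 0.84 and 1.07 for the 10 genes and 0.79, 0.63 and 0.63 for all genes. Tubb3 and Tubb5 were the genes not called in both arms of CTCF-AID. With equal totals 5, 4 and 7 members were called higher at 60 min (36.4%, 39.4% and 40.7% of all genes).

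Tubb4b exemplifies the fast genes. In CCNA-GFP its pre-mRNA was at 7.00, 5.55 and 5.51 TPM in mitosis and at 7.65 and 4.32 TPM 20 min after release. It then rose to 10.2 and 8.81 TPM (30 min), 18.8 and 16.1 TPM (40 min) and 26.7 TPM (the single library of 50 min, of replicate 3). The libraries of replicates 1 and 2 were at 20.9 and 18.7 TPM at 60 min and at 14.3 and 15.2 TPM at 120 min, so that 50 and 60 min share no replicate. All libraries from 30 min on were above all mitotic ones. The increase at 40 min was 1.39 ± 0.15 on the log2 scale in CCNA-GFP (adjusted p = 5.1e-07), 1.54 ± 0.14 without IAA (adjusted p = 3.8e-09) and 1.86 ± 0.14 with IAA (adjusted p = 2.7e-10), higher in 2 of 2 replicate pairs each time.

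Tuba1a rose and fell back within the sampled stages in CTCF-AID. Without IAA it went from 1.41, 1.12 and 1.32 TPM in mitosis and 1.59 and 0.961 TPM at 20 min to 6.30 and 6.13 TPM at 40 min, and it was back at 1.31 and 2.11 TPM at 90 min. With IAA it stood at 7.05 and 6.45 TPM at 40 min and at 1.62 and 1.65 TPM at 90 min. In CCNA-GFP the deposited values rose later and stayed high longer, with 3.49 and 3.77 TPM at 40 min, 5.59 and 4.67 TPM at 60 min and 4.25 and 4.89 TPM at 90 min. Its peak mean was 5.48 times the mitotic mean in CCNA-GFP (at 50 min, in 1 library; 5.13 times at 60 min without replicate 3), 4.84 times without IAA and 6.43 times with IAA. With equal totals these became 2.52, 3.33 and 4.50 times, with the highest mean at 40 min in all 3 arms. In CTCF-AID its highest mean was at 40 min, the stage of the highest mean for 2.25% of all genes without IAA and 1.38% with IAA.

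Tubg1, the γ-tubulin gene, had the largest increase at 60 min in every arm, by 1.63 ± 0.13 in CCNA-GFP (adjusted p = 6.9e-10), 1.89 ± 0.12 without IAA (adjusted p = 9.5e-12) and 1.96 ± 0.12 with IAA (adjusted p = 3.7e-12). Its highest means in CTCF-AID were at 50 min, with 6.29 and 9.05 TPM without IAA and 7.28 and 8.27 TPM with IAA, from mitotic means of 1.24 and 1.11 TPM. The stages of 50 and 60 min hold different replicates (1 and 3, and 1 and 2), and in the fit with the block the difference from mitosis was not larger at 50 min (1.83 and 1.95) than at 60 min. Without replicate 3 the highest mean without IAA was at 60 min. At 60 min it exceeded the median of all genes by 0.84, 1.25 and 1.32. Tubb6, the last of the β-tubulin genes, rose by 1.14 ± 0.15, 1.29 ± 0.12 and 1.29 ± 0.12 at the same stage. Tuba1c without IAA was the weakest of the genes called at 60 min (0.25 ± 0.11), with -0.47 under equal totals, -0.01 without replicate 2 and 0.28, not called, without replicate 3.

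Tubb3 and Tubb5, already high in mitosis, had the lowest log2 differences of the 10 genes at 40 and 60 min in both CTCF-AID arms. In CCNA-GFP Tubb3 was the lowest at 40 min, and Tubb2a (0.64) was below Tubb3 and Tubb5 at 60 min. At 40 min Tubb3 was called higher by 0.28 ± 0.11 in CCNA-GFP (adjusted p = 0.045), 0.41 ± 0.14 without IAA (adjusted p = 0.012) and 0.46 ± 0.14 with IAA (adjusted p = 0.0053), although its libraries overlapped with the mitotic ones in each arm. At 60 min both were called higher in CCNA-GFP, Tubb3 by 0.70 ± 0.11 and Tubb5 by 0.81 ± 0.14, values within 0.1 of the median of all genes. In CTCF-AID the 60 min differences ran from 0.08 to 0.23 and were not called. These directions follow the scaling: with each library scaled to the same total, Tubb3 and Tubb5 were below mitosis at 60 min in all 3 arms, by -0.31 and -0.46 in CCNA-GFP, -0.76 and -0.69 without IAA, and -0.67 and -0.74 with IAA. At 40 min Tubb3 was then at -0.16, -0.14 and -0.05 and Tubb5 was at -0.12 and -0.09 in CTCF-AID. The 40 min call of Tubb3 in CCNA-GFP was lost on leaving out replicate 1 (0.33), 2 (0.23) or 3 (0.31), and that of Tubb5 on leaving out replicate 3 (0.44 without IAA, 0.46 with IAA) or, without IAA, replicate 2 (0.34). Without the replicate block neither gene was called at 40 min in CTCF-AID. Without replicate 1, which leaves 1 library at 60 min in each CTCF-AID arm, Tubb3 was at 0.41 and 0.39 and Tubb5 at 0.61 and 0.48.

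In the deposited values every tubulin gene had its highest post-mitotic mean at 40, 50 or 60 min in every arm. With equal totals Tubb3 had it at 20 min in all 3 arms and Tubb5 at 20 min in both CTCF-AID arms, and without replicate 1 the deposited mean of Tubg1 in CCNA-GFP was highest at 90 min. In CCNA-GFP the highest stage mean of 9 of them was at 50 min, which is the single library of replicate 3, and that of Tuba1c was at 60 min. Single libraries of 60 min (replicate 1) were higher for Tuba1a, Tubb2b and Tubg1, with 5.59, 4.03 and 4.41 TPM against 5.55, 4.02 and 3.89 TPM at 50 min. Without replicate 3 all 10 were highest at 60 min, as they were within replicate 1 and within replicate 2, which have no library of 50 min. Over all genes, 50 min held the highest mean for 21.7% in CCNA-GFP, 48.1% without IAA and 51.2% with IAA, and 90 min held it for 37.1% in CCNA-GFP. Peak means ranged from 1.84 (Tubb3) to 6.62 (Tubb2b) times the mitotic mean in CCNA-GFP, from 1.34 (Tubb5) to 6.17 (Tubg1) times without IAA and from 1.35 (Tubb5) to 6.98 (Tubg1) times with IAA. The CCNA-GFP values rest on the single library of 50 min, and without replicate 3 they ran from 1.84 (Tubb5) to 6.68 (Tubg1), with Tubb2b at 4.75. With equal totals the lowest and highest became 0.921 (Tubb3) and 2.76 (Tubb2b) times in CCNA-GFP, 0.886 (Tubb3) and 3.33 (Tuba1a) times without IAA, and 1.01 (Tubb3) and 4.50 (Tuba1a) times with IAA. Means of Tubb3 and Tubb5 were above the asynchronous mean already in mitosis in all 3 arms. In CCNA-GFP the asynchronous mean was first reached at 20 min by Tubb6, at 30 min by Tubb4b, at 40 min by 5 genes and at 50 min by Tuba1c. These times moved. Tubb6 was at 40 min without replicate 1, at 30 min without replicate 3, and above already in mitosis without replicate 2 or with equal totals. Without replicate 1 Tubb4b was at 40 min and Tubb2b at 50 min, and without replicate 3 Tubg1 was at 30 min. Tuba1c was at 60 min without replicate 1 or 3 and did not reach it within replicate 3 or with equal totals.

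By 120 min the members had parted. In CCNA-GFP 8 of the 10 genes were still called higher than in mitosis and 0 lower, and with equal totals 2 higher and 2 lower (28.7% and 23.5% of all genes; background as deposited 90.2% and 0.656% of all genes; 8 members had an unadjusted p under 0.05, all of them higher). Without IAA 3 were called higher and 3 lower (69.6% and 3.15% of all genes), and with IAA 3 higher and 2 lower (68.2% and 4.42%). With equal totals 5 were lower in each of the 2 CTCF-AID arms (25.9% and 28.7% of all genes). The median log2 difference was 0.87, 0.02 and 0.17 for the 10 genes and 0.68, 0.34 and 0.35 for all genes. Those higher in both CTCF-AID arms were Tubb4b, Tubb6 and Tubg1, by 0.88 to 1.24. Tubb3 and Tubb5 were lower than in mitosis in both arms, Tubb3 by -0.73 ± 0.14 (adjusted p = 7.3e-05) and -0.72 ± 0.14 (adjusted p = 7.1e-05), and Tubb5 by -0.54 ± 0.17 (adjusted p = 0.0059) and -0.59 ± 0.17 (adjusted p = 0.0028). Tuba1c was lower without IAA (-0.27 ± 0.11, adjusted p = 0.036), and with IAA the difference was -0.22 ± 0.11 (adjusted p = 0.081). Several of these values moved without replicate 1, which leaves 1 library at 120 min in each CTCF-AID arm. Tubb5 was then at -0.13 and -0.22 in these arms, Tuba1c at -0.12 without IAA, and Tuba1a and Tuba1b at 0.64 and 0.52 with IAA. Without replicate 3 Tuba1c was not called without IAA (-0.24), and without replicate 2 it was called lower with IAA (-0.39).

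From 60 to 120 min most of the members declined. Lower at 120 than at 60 min were 7 of the 10 genes in CCNA-GFP (28.5% of all genes), 9 without IAA (53.1%) and 9 with IAA (50.8%). The median log2 difference was -0.47, -0.72 and -0.81 for the 10 genes, and -0.11, -0.27 and -0.25 for all genes. Tuba1a fell most in CTCF-AID, by 1.23 ± 0.21 without IAA (adjusted p = 3.1e-05) and by 1.22 ± 0.21 with IAA (adjusted p = 3.3e-05). Tubb6 was the member not called in any arm, with differences of -0.18 ± 0.16, -0.21 ± 0.13 and -0.21 ± 0.13. In CCNA-GFP the count rests on the pairing and on replicate 1, without which 1 library is left at 60 and at 120 min. Without the replicate block 1 gene was called, where 1195 of all 9911 genes were, beside 2824 with the block. After division of the libraries by their own factors 4 were called (13.9% of all genes). With equal totals 5, 8 and 8 genes were called lower in the 3 arms (21.7%, 26.5% and 27.2% of all genes).

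Compared with asynchronous cells, 9 of the 10 genes were called higher at 60 min in every arm, where 67%, 75.2% and 72.2% of all genes were. With equal totals 5, 3 and 5 were called higher (35%, 37.5% and 36.9% of all genes). The exception was Tuba1c, at 0.15 ± 0.12, -0.04 ± 0.11 and 0.04 ± 0.11. At 120 min 6 genes were called higher and 1 lower in CCNA-GFP (63.4% and 5.86% of all genes), 4 higher and 2 lower without IAA (51% and 7.25%) and 4 higher and 2 lower with IAA (47.2% and 8.43%). With equal totals these became 3 higher and 1 lower in CCNA-GFP (26.8% and 24.9% of all genes), 3 and 6 without IAA (26.9% and 27.7%), and 3 and 4 with IAA (26.2% and 29.2%), so that the counts higher are at the background. After division of the libraries by their own factors 3, 2 and 4 were higher (29%, 20.9% and 23%). Tubb3, Tubb4b, Tubb6 and Tubg1 were called above the asynchronous level in each arm, although the call of Tubb4b in CTCF-AID was lost without replicate 2 (0.48 and 0.46) and that of Tubb3 there without the replicate block (0.47 and 0.48). Tubb6 stood out among them: without IAA its 120 min libraries had 2.94 and 3.55 TPM and the asynchronous libraries 0.595, 1.48 and 0.698 TPM, and with IAA they had 2.98 and 3.48 TPM against 0.787, 1.83 and 0.977 TPM. These groups did not overlap, and the differences were 1.15 ± 0.12 (adjusted p = 3.2e-08) and 0.95 ± 0.12 (adjusted p = 5.5e-07), and 0.91 ± 0.15 in CCNA-GFP (adjusted p = 3.3e-05). Tuba1b (0.44 ± 0.14) and Tubb5 (0.38 ± 0.14) were called higher in CCNA-GFP with overlapping libraries, stood at -0.08 and -0.14 with equal totals, and lost the call without replicate 2 (0.31 and 0.18) and, for Tuba1b, without replicate 1 (0.48), whereas Tubb2b was called there without replicate 3 (0.30).

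Tuba1c and Tuba1a lay on the other side. Tuba1c at 120 min had 1.83 and 3.10 TPM in CCNA-GFP, against 2.90, 4.15 and 4.30 TPM in asynchronous cells, a difference of -0.43 ± 0.12 (adjusted p = 0.0035) with overlapping libraries that was not called without the replicate block or without replicate 1 (-0.33). In CTCF-AID it was at 1.67 and 2.15 TPM against 3.38, 3.30 and 3.00 TPM without IAA, and the groups were apart in both arms (-0.56 ± 0.11, adjusted p = 2.0e-04, and -0.78 ± 0.11, adjusted p = 4.0e-06). Tuba1a was called lower in both CTCF-AID arms, at -0.54 ± 0.19 (adjusted p = 0.02) and -0.50 ± 0.19 (adjusted p = 0.03), and was at 0.17 ± 0.13 in CCNA-GFP (adjusted p = 0.26). The former calls were lost without replicate 1 (-0.32 and -0.20) or replicate 3 (-0.56 and -0.54). Without replicate 2 Tubb5 (-0.40 and -0.41), Tubb2b without IAA (-0.59) and Tuba1b with IAA (-0.36) were called lower too, as was Tubb2a without IAA when replicate 1 was left out (-0.22).

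**Figure D3:**
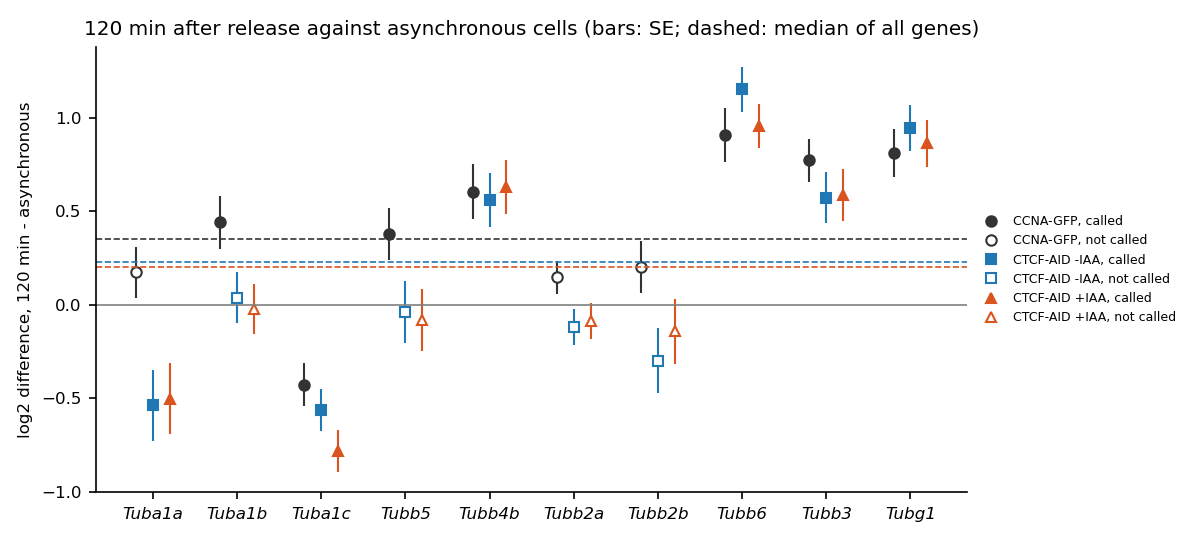
Log2 difference between cells at 120 min after release and asynchronous cells on the log2(TPM + 1) scale (vertical axis) for each tubulin gene (horizontal axis), with bars for the SE of the limma fit, filled symbols for adjusted p under 0.05 and dashed lines for the median of all genes. Tubb6, Tubb3, Tubg1 and Tubb4b are above 0 in each arm and Tuba1c is below it.

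The family's part of all pre-mRNA followed a pulse as well. The 10 genes made up 0.192 ± 0.0102% of the summed TPM in mitotic CCNA-GFP cells (SD, n = 3), 0.288 ± 0.0179% at 40 min (n = 2), 0.173 ± 0.00811% at 120 min (n = 2) and 0.176 ± 0.00906% in asynchronous cells (n = 3). Without IAA the shares were 0.207 ± 0.0144%, 0.289 ± 0.00280%, 0.154 ± 0.0110% and 0.168 ± 0.00643%, and with IAA they were 0.201 ± 0.00993%, 0.309 ± 0.00862%, 0.153 ± 0.00895% and 0.169 ± 0.00557%. In each arm both libraries of 40 min were above all mitotic and all asynchronous libraries, and in CTCF-AID all mitotic libraries were above all asynchronous ones. In CCNA-GFP the lowest mitotic share, 0.1818%, and the highest asynchronous one, 0.1814%, were nearly equal. Taken of the summed TPM of genes whose mean reached 1 TPM, they overlapped (0.196% and 0.198%). These shares do not depend on a common factor of a library, and no test was run on them.

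**Figure D4:**
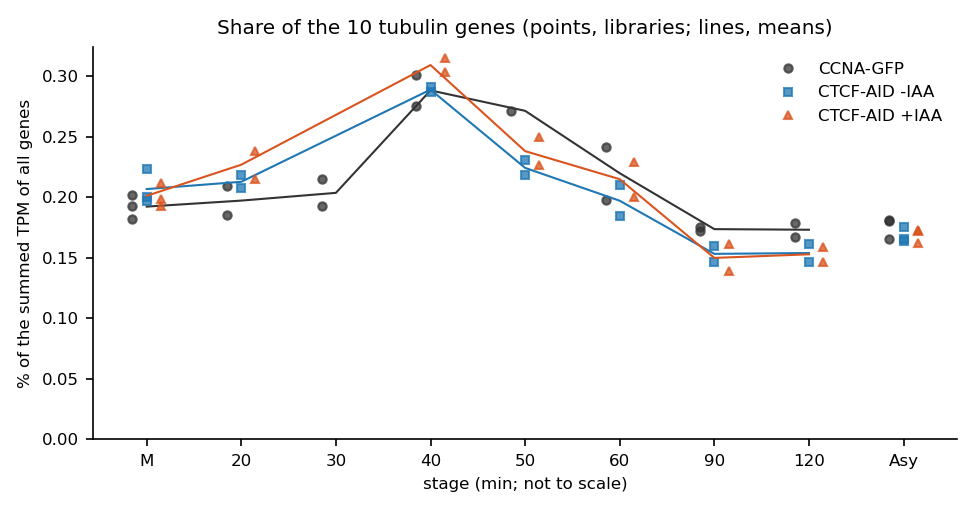
Summed TPM of the 10 tubulin genes as a percentage of the summed TPM of all listed genes (vertical axis, from 0) at each stage (horizontal axis, M for mitotic, minutes after release, Asy for asynchronous, not to scale). Points are libraries and lines join means, which are highest at 40 min in each arm (0.288%, 0.289% and 0.309%).

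Within β-tubulin pre-mRNA the makeup turned over between mitosis and G1. Tubb5 held 51.5 ± 3.78% of the summed TPM of the 6 β-tubulin genes in mitotic CCNA-GFP cells, 36.7 ± 0.128% at 60 min, 33.9 ± 0.550% at 120 min and 41.1 ± 4.68% in asynchronous cells. Tubb4b held 28.6 ± 3.92%, 39.6 ± 0.114%, 43.5 ± 0.710% and 40.9 ± 4.02% at the same stages. The same turn was seen without IAA, where Tubb5 went from 48.0 ± 2.84% in mitosis to 31.4 ± 0.788% at 120 min and Tubb4b from 22.0 ± 4.56% to 41.7 ± 2.22%. In these comparisons the libraries at 120 min were apart from the mitotic ones. Tubb3 held 11.0 ± 1.05% in mitotic and 4.90 ± 1.32% in asynchronous CCNA-GFP cells, and 22.0 ± 3.43% and 8.94 ± 2.50% in CTCF-AID without IAA. Of α-tubulin pre-mRNA, Tuba1b held most at every stage, with mean shares between 59.3% and 76.1%. The share of Tuba1a in CTCF-AID without IAA was 10.4 ± 0.777% in mitosis, 21.5 ± 1.38% at 40 min and 10.4 ± 3.56% at 120 min.

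**Figure D5:**
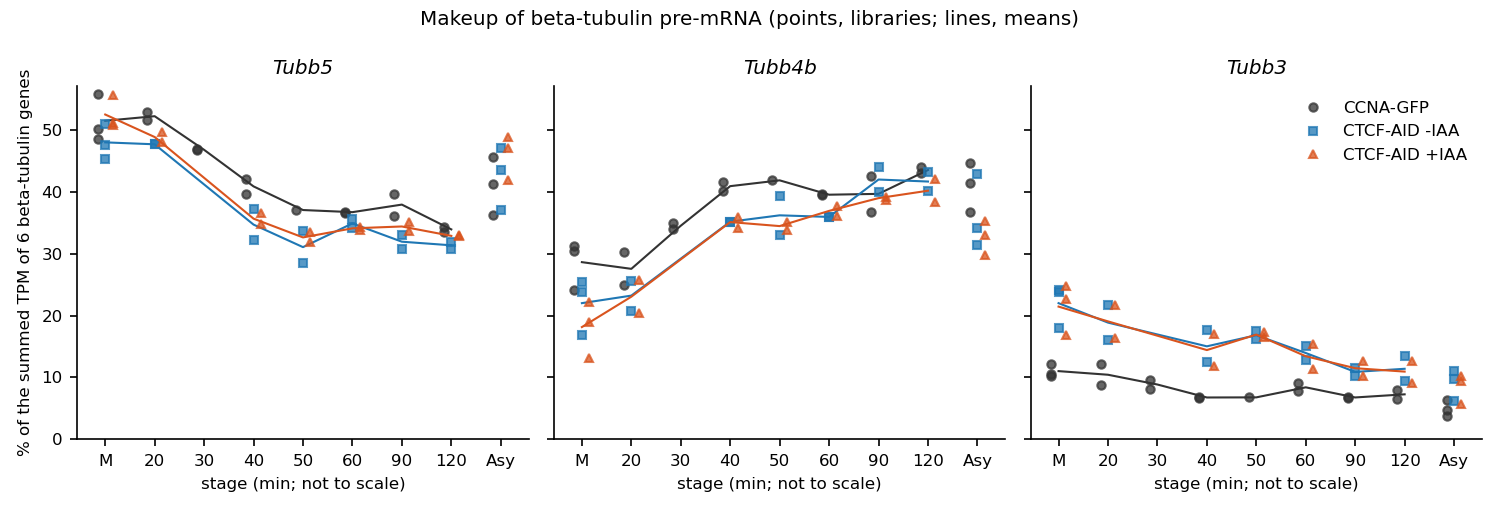
Share of Tubb5, Tubb4b and Tubb3 in the summed TPM of the 6 β-tubulin genes (vertical axis, in percent, from 0) at each stage (horizontal axis, M for mitotic, minutes after release, Asy for asynchronous, not to scale). Points are libraries and lines join means; Tubb5 declines from mitosis to 120 min, Tubb4b increases, and Tubb3 in mitosis holds 22.0% and 21.4% in the CTCF-AID arms and 11.0% in CCNA-GFP.

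Across stages the members kept company with each other to a varying degree. Over the 9 stage means of CCNA-GFP the 45 pairs of members had a median Pearson r of 0.89 (0.31 to 0.98), and over the 8 stages of the CTCF-AID arms the median was 0.75 without IAA (0.25 to 0.98) and 0.74 with IAA (0.23 to 0.98). Stage means of 1 line share the same libraries, so these values only describe the profiles. By the same measure, among the 6808 genes whose mean reached 1 TPM, the profiles most like Tubb4b in CCNA-GFP were those of Ubb, a polyubiquitin gene, Brd2, a BET bromodomain gene, and Srsf5, a splicing factor gene (r of 0.999, 0.990 and 0.990), with r between 0.91 and 0.99 in the CTCF-AID arms. Those most like Tuba1b were Ncl (nucleolin), Chtop and Alyref (0.997, 0.997 and 0.996), of which Chtop and Alyref act in mRNA export. Tubb5 was closest to Stmn1, the gene of the tubulin-binding protein stathmin (0.993, and 0.92 and 0.90 in CTCF-AID), Frs3os (0.987, and 0.29 and 0.43) and Bricd5 (0.984, and 0.85 and 0.76), so that the likeness of Frs3os did not carry over to the other line.

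The CTCF-AID line addressed whether the return of tubulin transcription differs when CTCF is degraded. At none of the 8 stages was any of the 10 genes called between +IAA and -IAA (limma, adjusted p under 0.1 and an absolute log2 difference over 0.2), and none had an unadjusted p under 0.05 in this fit, which has no block. With the replicate block, which uses the pairing, none was called either. In that fit 4 of the 80 differences had an unadjusted p under 0.05 (adjusted p from 0.76 to 1), about as many as this threshold lets pass where nothing differs. These were Tuba1c at 50 min (0.27 ± 0.12, adjusted p = 0.97) and 60 min (0.28 ± 0.12, adjusted p = 1), higher with IAA in 2 of 2 pairs each, and Tubb4b in mitosis (-0.27 ± 0.13, adjusted p = 1) and Tubb2a in asynchronous cells (-0.18 ± 0.09, adjusted p = 0.76), lower with IAA in 3 of 3 pairs each. Tuba1c was also higher with IAA in 3 of 3 asynchronous pairs (0.20 ± 0.10, adjusted p = 0.86) and 2 of 2 pairs of 90 min (0.09 ± 0.12). In mitosis Tuba1a, Tuba1b, Tuba1c, Tubb2a, Tubb3 and Tubg1 too were lower with IAA in 3 of 3 pairs (-0.16 to -0.06). Tubb2b, Tubb5 and Tubb6 had mitotic pairs of both signs. In asynchronous cells 3 of 3 pairs were lower for Tubb3 (-0.08 ± 0.12) and higher for Tubb6 (0.19 ± 0.10). Tubb5 was higher in 2 of 2 pairs at each post-mitotic stage (0.03 to 0.19). Of all genes, 0% were called without the block in mitotic cells, at 20 min and at 40 min. The share was 0.283% and 0.225% in cells of 50 and 60 min, 0.733% and 0.586% in those of 90 and 120 min, and 1.01% in asynchronous cells. Without the block the largest differences were those of Tuba1c, 0.28 ± 0.15 at 60 min (2.52 and 3.92 TPM without IAA, 3.38 and 4.80 TPM with IAA) and 0.27 ± 0.15 at 50 min, and of Tubb4b in mitosis, -0.27 ± 0.16. By the fitted interaction, the change from mitosis differed between the arms for 0 of the 10 genes at any stage (adjusted p under 0.05). Tuba1c had an unadjusted p under 0.05 at 50 and 60 min. That interaction passed for few of all 10237 genes. It was called most often for 90 min, positive with IAA for 12 genes and negative for 45, and for 0 genes at 20 min. The count of 0 members is thus at the background and is no result about the tubulins. IAA acts on the CTCF protein, so that the pre-mRNA does not check the treatment.

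The machinery of tubulin autoregulation was looked at beside its targets. Of the list for TTC5, SCAPER and CCR4-NOT subunits, 10 genes were listed in the tables, and Scaper was not. In the contrast of asynchronous with mitotic cells 7 of the 10 were called higher and 0 lower in CCNA-GFP (median 0.35, all genes 0.33), 1 higher and 2 lower without IAA (0.06, all genes 0.12), and 2 higher and 3 lower with IAA (-0.02, all genes 0.15). Of all genes, 70.4%, 34.3% and 40.9% were called higher and 1.97%, 5.25% and 5.89% lower, so that the CCNA-GFP count is at the background. At 60 min the calls against mitosis were 10, 9 and 8 higher and 0, 0 and 1 lower, near the 88.3%, 84.8% and 82.2% of all genes called higher. The counts for asynchronous cells moved with single replicates: without replicate 3, 3 were called higher in CCNA-GFP, 0 higher and 0 lower without IAA, and 1 higher and 1 lower with IAA, and without replicate 1 there was 1 lower without IAA and 1 higher with IAA, which was also the number higher there without replicate 2. With each library scaled to the same total the balance turned, to 0, 0 and 1 higher and 4, 4 and 6 lower in asynchronous cells, and to 2, 3 and 3 higher and 6, 6 and 6 lower at 60 min. Of all genes, that scaling gave 24.8%, 27.2% and 29.8% higher and 20.3%, 21.4% and 22.4% lower in asynchronous cells, and 36.4%, 39.4% and 40.7% higher and 33.3%, 31.1% and 33.2% lower at 60 min. The gene called lower at 60 min with IAA was not called without replicate 1 or 3. Cnot11, a subunit that links CCR4-NOT to SCAPER, was higher at 60 min by 0.94 ± 0.10, 0.95 ± 0.09 and 1.14 ± 0.09. Cnot10, which binds CNOT11, was higher by 1.37 ± 0.13, 0.99 ± 0.11 and 1.03 ± 0.11.

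Ttc5, a gene of this machinery, differed with IAA, and the other genes of the list are not counted in that contrast. In asynchronous cells it had 2.10, 1.82 and 2.62 TPM without IAA and 0.787, 0.597 and 0.977 TPM with IAA. At 90 min the libraries were at 1.95 and 2.61 TPM without and at 0.652 and 0.951 TPM with IAA, and at 120 min at 1.92 and 1.93 TPM against 0.735 and 0.845 TPM. These groups were apart, whereas mitotic libraries overlapped (1.74, 1.46 and 1.94 TPM without IAA, 1.64, 1.37 and 1.87 TPM with IAA). Mitotic cells had also been in IAA for a shorter time than the later and the asynchronous ones, and the part of this was not tested. The log2 difference in mitosis was -0.05 ± 0.11 (adjusted p = 1). Cells of 50 and 60 min differed by -0.61 ± 0.14 (adjusted p = 0.074) and -0.64 ± 0.14 (adjusted p = 0.059), and those of 90 and 120 min by -0.86 ± 0.14 (adjusted p = 0.0013) and -0.71 ± 0.14 (adjusted p = 0.011). In asynchronous cells the difference was -0.83 ± 0.11 (adjusted p = 9.8e-05). Without replicate 1, which leaves 1 library in each arm at 50 to 120 min and 2 in asynchronous cells, the values ran from -0.89 to -0.51 and none was called. The calls at 50, 60 and 120 min were also lost without replicate 2 (-0.61, -0.76 and -0.75), and that at 50 min without replicate 3 (-0.66). In the same libraries no tubulin gene was called.

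Other genes around the microtubule gave a mixed picture. Of the folding machinery (prefoldin, the CCT chaperonin and tubulin cofactors), 20 genes were listed, of which 14, 8 and 9 were called higher and 0, 4 and 4 lower in asynchronous cells than in mitosis (70.4%, 34.3% and 40.9% of all genes higher, and 1.97%, 5.25% and 5.89% lower), with the higher counts near the background. Without IAA these were 5 higher and 2 lower without replicate 2 and 3 higher and 1 lower without replicate 3, and with IAA 2 were lower without replicate 1 or 3. Without the replicate block 2 were higher without IAA and 4 with IAA, where 1192 and 1775 of all 10237 genes were, and 0 were lower. With equal totals 5 were higher in each arm and 7, 8 and 8 lower (24.8%, 27.2% and 29.8%, and 20.3%, 21.4% and 22.4% of all genes). Cct4, a CCT subunit, was higher by 1.05 ± 0.13, 0.47 ± 0.09 and 0.55 ± 0.09, and Pfdn6, a prefoldin subunit, was higher at 60 min by 1.45 ± 0.15, 1.59 ± 0.14 and 1.76 ± 0.14. Of 12 genes of the γ-tubulin ring complex and its anchors, 9, 8 and 8 were called higher and 0, 3 and 2 lower at 60 min than in mitosis, against 88.3%, 84.8% and 82.2% of all genes higher and 0.515%, 2.7% and 4.04% lower, with medians of 0.60, 0.41 and 0.40 that lie below those of all genes (0.79, 0.63 and 0.63). With equal totals 2, 3 and 3 of them were higher and 6, 6 and 7 lower (36.4%, 39.4% and 40.7%, and 33.3%, 31.1% and 33.2% of all genes). Tubgcp3, which assembles the ring with γ-tubulin, was higher by 1.16 ± 0.12, 1.17 ± 0.12 and 1.24 ± 0.12, and Mzt1, a small protein of the ring complex, by 1.05 ± 0.13, 1.03 ± 0.10 and 1.08 ± 0.10.

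Among 17 listed regulators of microtubule dynamics, 15, 13 and 13 were called higher and 0, 0 and 1 lower at 60 min, which became 5, 6 and 5 higher and 8, 6 and 6 lower with equal totals (36.4%, 39.4% and 40.7%, and 33.3%, 31.1% and 33.2% of all genes). As deposited, the shares called higher are near or under the 88.3%, 84.8% and 82.2% of all genes called higher. Without replicate 1, 1 was lower without IAA. Map7d1, a microtubule-associated protein gene, was higher by 1.35 ± 0.11, 1.22 ± 0.12 and 1.23 ± 0.12. Stmn2, a neuronal stathmin gene, was higher in asynchronous than in mitotic cells by 0.87 ± 0.12 in CCNA-GFP and 0.35 ± 0.11 without IAA, and its difference with IAA was 0.26 ± 0.11 (adjusted p = 0.06). Tubulin-modifying enzymes were called higher at 60 min for 12 of 12 listed in CCNA-GFP and for 11 of 13 in each CTCF-AID arm (88.3%, 84.8% and 82.2% of all genes, near which the counts lie; 5, 9 and 7 higher and 4, 3 and 3 lower with equal totals, beside the same shares of all genes as for the regulators), among them Ttll12 by 1.40 ± 0.12, 1.02 ± 0.10 and 1.08 ± 0.10, whereas Ttll4, a polyglutamylase, was called only in CCNA-GFP (0.29 ± 0.12). Of the other tubulin genes 4 were listed, and 4 were called higher at 60 min in each arm, where 88.3%, 84.8% and 82.2% of all genes were (4, 2 and 3 with equal totals, against 36.4%, 39.4% and 40.7%). Tuba4a rose by 1.39 ± 0.12, 1.09 ± 0.17 and 1.20 ± 0.17, and Tuba3a by 0.51 ± 0.09, 0.56 ± 0.10 and 0.58 ± 0.10.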

How the data were processed

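Ribosome-depleted, stranded, paired-end RNA-seq was measured in 55 libraries. Per the study's methods, the authors aligned reads with STAR to mm10 and quantified Gencode vM12 with RSEM, to which 1 unspliced pre-mRNA isoform per gene had been added, and deposited the pre-mRNA values as TPM (length-corrected abundances) for genes above a minimum level. That level had to be met in asynchronous cells or in more than 1 post-mitotic sample, and mitotic cells did not count. Versions of STAR and RSEM are not given in the sources used here, and the study's own test on counts was not used. In each library 100% of the values below 40 steps were whole multiples of 1 step (within 0.02 of a step), which is 0.01 TPM times an undocumented factor, so the deposited TPM carry a scaling by library. The table of CCNA-GFP lists 9911 genes and that of CTCF-AID 10237, and they were analysed separately, with no test between the lines.

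Groups were taken from the sample labels. TPM were transformed as log2(TPM + 1) and fitted over all genes of a table with limma 3.58.1 (R 4.3.3, lmFit and eBayes with trend, two-sided), with Benjamini-Hochberg adjustment within each contrast. Stage comparisons carried a term for the replicate number (the block) and were called at an adjusted p under 0.05. Same-numbered libraries deviated together from their group means in every pair (r of 0.130 to 0.802 over 41 pairs in CCNA-GFP and 0.110 to 0.884 over 182 pairs in CTCF-AID), by which the numbers pair the libraries. +IAA and -IAA were compared without the block, at an adjusted p under 0.1 and an absolute log2 difference over 0.2. Fold changes on this scale understate those of low genes. The fits were tested on simulated data. Sums and figures were made with Python 3.11.15, numpy 2.4.6, pandas 2.3.3 and matplotlib 3.10.9.

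The 10 members, the further lists and the tests were chosen with earlier results of these data known. All members, Ttc5, Scaper and Cnot11 were to be named, with the called gene of the largest positive and negative difference of each list in CCNA-GFP (asynchronous or 60 min against mitotic cells), and for the 3 most abundant members the 3 genes with the most similar stage means. Alternatives were a pseudocount of 0.1, libraries scaled to the same total, genes whose mean reached 1 TPM, no block, and each replicate left out. The division of each library by its own factor, and all alternatives for the lists and Ttc5, were added after the data were seen.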

Additional observations from a re-analysis of the deposited data

Results flagged for a closer look

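In 8 comparisons every replicate pair of CCNA-GFP moved one way and every pair of both CTCF-AID arms the other way. The difference between the lines was not tested, since the tables were fitted separately. At 90 min against mitosis the log2 difference of Tuba1c was 0.69 in CCNA-GFP, -0.24 without IAA and -0.08 with IAA. That of Tubb3 was 0.09, -0.93 and -0.87, and that of Tubb5 was 0.36, -0.52 and -0.59. At 120 min against mitosis Tuba1c was at 0.64, -0.27 and -0.22, Tubb2a at 0.36, -0.03 and -0.06, Tubb3 at 0.12, -0.73 and -0.72, and Tubb5 at 0.18, -0.54 and -0.59. Against asynchronous cells, Tubb2a at 120 min was at 0.15, -0.12 and -0.09.

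Under division of each library by its own factor all 8 comparisons kept opposite signs in the lines, for example Tubb5 at 90 min with 0.44, -0.55 and -0.62. With each library scaled to the same total, the CCNA-GFP values at 90 min were -0.07 for Tuba1c, -0.79 for Tubb3 and -0.77 for Tubb5, and those at 120 min were -0.12 for Tuba1c, 0.07 for Tubb2a, -0.72 for Tubb3 and -0.90 for Tubb5. Tubb2a against asynchronous cells was then at -0.03. Of the 8 comparisons, Tubb2a at 120 min against mitosis was the only one whose CCNA-GFP value stayed above 0 under that scaling, with -0.24 in each CTCF-AID arm. That value of 0.07 was not called. Tubb2a passed the level filter of the CCNA-GFP table only through post-mitotic stages, so that its place above mitosis there carries no weight.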

How the results depend on the processing

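Scaling each library to the same total mattered most, since it takes the median difference of all genes at 60 min from 0.79, 0.63 and 0.63 (CCNA-GFP, -IAA, +IAA) to 0.02, 0.06 and 0.06. Of 150 log2 differences of single members, 98 kept their status as called or not called, 21 lost the call and 9 gained it. The other 22 changed sign and were called before or after the scaling. Sign changes of values called in neither fit are not counted. Tubb2a at 120 min against asynchronous cells in CCNA-GFP is such a value (0.15 as deposited, -0.03 with equal totals). In CCNA-GFP the members called higher were then 5 at 60 min (36.4% of all genes) and 2 at 120 min (28.7%) against mitosis, 4 in asynchronous against mitotic cells (24.8%), and 5 at 60 min (35%) and 3 at 120 min (26.8%) against asynchronous cells, and those lower were 2 at 120 min against mitosis (23.5%) and 2 in asynchronous against mitotic cells (20.3%). Without IAA they were 4 higher at 60 min (39.4%) and 5 lower at 120 min (25.9%) against mitosis, 1 higher in asynchronous against mitotic cells (27.2%), and 3 higher at 60 min (37.5%) and 6 lower at 120 min (27.7%) against asynchronous cells. With IAA they were 5 lower at 120 min against mitosis (28.7%), 3 higher in asynchronous against mitotic cells (29.8%), and 5 higher at 60 min (36.9%) and 4 lower at 120 min (29.2%) against asynchronous cells. The values counted as changed in sign in CCNA-GFP were Tubb3 against mitosis at 40 min (-0.16), 60 min (-0.31) and 120 min (-0.72), and Tubb5 at 60 min (-0.46) and 120 min (-0.90). Also counted there were Tuba1c at 120 min against mitosis (-0.12), and Tuba1b (-0.08) and Tubb5 (-0.14) at 120 min against asynchronous cells. Without IAA they were Tubb3 (-0.14) and Tubb5 (-0.12) at 40 min, Tubb3 (-0.76), Tubb5 (-0.69), Tuba1b (-0.03) and Tuba1c (-0.47) at 60 min, and Tuba1b at 120 min against mitosis (-0.32) and against asynchronous cells (-0.32). With IAA they were Tubb3 (-0.05) and Tubb5 (-0.09) at 40 min, Tubb3 (-0.67), Tubb5 (-0.74) and Tuba1c (-0.15) at 60 min, and Tuba1b at 120 min (-0.25). Division by the library's own factor, chosen after seeing the data, ended 7 calls of the 150 and added 7. It changed the sign of 0 values that were called before or after, and values called in neither fit are again not counted. The counts became 3 higher at 120 min against asynchronous cells (29% of all genes) and 4 lower at 120 against 60 min (13.9%) in CCNA-GFP, 6 higher and 1 lower in asynchronous against mitotic cells (66% and 1.51%) and 2 higher at 120 min against asynchronous cells (20.9%) without IAA, and 1 lower in asynchronous against mitotic cells (2.19%) with IAA. Without the replicate block 20 of the 150 lost the call and 0 gained one. In CCNA-GFP this left 0 lower at 120 min against asynchronous cells and 1 lower at 120 against 60 min (354 and 1195 of 9911 genes). In asynchronous against mitotic cells it left 1 higher and 1 lower without IAA (1192 and 127 of 10237 genes) and 2 higher with IAA (1775). At 120 min against asynchronous cells 1 was lower with IAA (445). With the block the genes called were 581 and 2824, 3515 and 537, 4185, and 863, so that calls fell over the whole tables too. With single replicates left out, a post-mitotic stage can be left with 1 library. The members called lower at 120 min against asynchronous cells then changed in number in every arm. So did those lower at 120 against 60 min in CCNA-GFP and those lower at 120 min against mitosis in CTCF-AID. Calls over all genes moved in those fits too, so that these changes are no result about the tubulins. In asynchronous against mitotic cells 0 to 4 were higher without IAA. There 2766 of 10237 genes were called higher without replicate 1 and 1770 without replicate 3, beside 3515 with all replicates. With IAA 3 to 5 were higher, where 3843 genes were without replicate 1 and 4185 with all replicates. Tuba1c at 60 min without IAA ranged from -0.01 to 0.52 over the left-out replicates, the lower value without replicate 2. No member was called between +IAA and -IAA under any alternative, the replicate block among them (0 over the 8 stages). The pseudocount of 0.1 ended 1 call and added 1. Against the summed TPM of genes whose mean reached 1 TPM, a smaller sum, the share of all 10 tubulin genes was 0.208% in mitosis, 0.188% at 120 min and 0.192% in asynchronous cells of CCNA-GFP. It was 0.180% in asynchronous cells without IAA, and 0.213%, 0.163% and 0.181% in mitosis, at 120 min and in asynchronous cells with IAA. The cause of the other changes was not tested. Depth limits cannot be given, as TPM hold no counts.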
